A study of Homo sapiens with 19 samples.

Results

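FN1, COL6A3, TNC and VCAN encode fibronectin, the alpha-3 chain of type VI collagen, tenascin-C and versican, matrix proteins whose transcripts gain or lose whole protein modules by alternative splicing. Every splicing event assigned to these 4 gene symbols in the 15 deposited event tables was taken, which gave 233 events of 100239 in all: 153 of FN1, 60 of TNC, 15 of COL6A3 and 5 of VCAN. The cells were HMLE/Twist-ER cells, a Tert-immortalized human mammary epithelial line that carries the transcription factor Twist fused to an estrogen receptor. Untreated cells stood for the epithelial state (EPI), and cells kept in 20 nM tamoxifen until they looked fully mesenchymal stood for the mesenchymal state (MES). All RNA-seq cultures carried a stable lentiviral shRNA, either a non-specific control or one against AKAP8, an RNA-binding protein. Poly(A) RNA was sequenced from 3 control and 3 knockdown libraries in EPI and from 3 control and 2 knockdown libraries in MES. All came from 1 engineered line and from a forced Twist signal, and which AKAP8 shRNA was used is not given in the labels.

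Fibronectin is built from repeated modules. Extra domain B (EDB) and extra domain A (EDA) are single type III modules, each on an exon of its own, and the IIICS or V region is a stretch between 2 type III modules that is cut in several ways. The part of IIICS at its upstream end holds the CS1 site, which binds the integrin that contains ITGA4. Tenascin-C carries alternative type III repeats, lettered A1 to D, between constant ones. Versican attaches chondroitin sulfate along the GAG-alpha and GAG-beta segments, and COL6A3 has a row of von Willebrand A modules at its amino end, of which N10, N9 and N7 are known to vary. Forms of fibronectin with EDA or EDB are known from embryonic, wound and tumor matrix.

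In GRCh37, FN1 spans chr2:216225163-216300796 and COL6A3 chr2:238232646-238322971, TNC spans chr9:117781854-117880486, all on the minus strand, and VCAN spans chr5:82767437-82878122 on the plus strand. EDB is exon 25 of the main FN1 transcript (chr2:216257654-216257926), EDA is exon 33 (chr2:216245534-216245803) and IIICS lies in exon 40 (chr2:216236632-216237098). N10, N9, N8 and N7 of COL6A3 are exons 3 to 6, with N7 at chr2:238287279-238287878 and N9 at chr2:238296225-238296827. The lettered TNC repeats are exons 11 to 17, and another repeat exon without a letter here lies between B and C at chr9:117815019-117815294. GAG-alpha is VCAN exon 7 (chr5:82815168-82818128) and GAG-beta exon 8 (chr5:82832826-82838087). All are coding exons.

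The 2 whole fibronectin exons are shown first because their inclusion was measured most deeply. Capitals mark the exon and lower case the adjoining intron, read 5′ to 3′ on the transcribed strand.
EDB: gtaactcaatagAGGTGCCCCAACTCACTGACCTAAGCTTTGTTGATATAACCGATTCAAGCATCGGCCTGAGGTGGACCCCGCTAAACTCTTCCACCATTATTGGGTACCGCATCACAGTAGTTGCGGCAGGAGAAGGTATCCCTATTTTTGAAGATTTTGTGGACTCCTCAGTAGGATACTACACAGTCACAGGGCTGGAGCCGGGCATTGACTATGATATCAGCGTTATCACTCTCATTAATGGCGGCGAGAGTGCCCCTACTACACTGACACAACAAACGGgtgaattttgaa
EDA: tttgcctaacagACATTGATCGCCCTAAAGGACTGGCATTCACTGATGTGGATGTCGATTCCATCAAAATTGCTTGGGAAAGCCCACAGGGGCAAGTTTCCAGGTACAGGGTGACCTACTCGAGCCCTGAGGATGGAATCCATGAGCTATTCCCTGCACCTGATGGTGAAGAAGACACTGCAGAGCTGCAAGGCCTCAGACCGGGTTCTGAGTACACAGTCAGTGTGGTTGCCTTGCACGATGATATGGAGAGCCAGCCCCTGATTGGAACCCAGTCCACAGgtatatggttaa
These are the bases of chr2:216257642-216257938 and chr2:216245522-216245815. The IIICS exon can begin at 3 acceptor sites, shown with the last 30 intron-side bases in lower case and the first 12 exon bases in capitals. In the second and the third, the lower-case bases are part of the exon in the longer forms.
IIICS acceptor 1: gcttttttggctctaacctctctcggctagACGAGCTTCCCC
IIICS acceptor 2: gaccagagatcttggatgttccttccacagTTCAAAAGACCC
IIICS acceptor 3: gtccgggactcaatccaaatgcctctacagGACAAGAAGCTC
Moving from the first acceptor to the second removes 75 bases, the 25-codon segment that holds CS1. Moving to the third removes 360 bases, or 120 codons, and gives the form called V0. Within these 360 bases, the last 93 (31 codons), chr2:216236739-216236831, can also be kept or removed as an intron.
25-codon segment: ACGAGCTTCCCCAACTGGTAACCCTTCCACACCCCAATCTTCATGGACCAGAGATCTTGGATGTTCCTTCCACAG
31-codon segment: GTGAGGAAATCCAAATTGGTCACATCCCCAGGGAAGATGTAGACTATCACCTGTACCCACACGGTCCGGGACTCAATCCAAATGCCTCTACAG
The splice sites of COL6A3 N7, the one exon whose change passed both cutoffs, are shown with those of N9, its neighbour among the alternative modules.
N7 acceptor: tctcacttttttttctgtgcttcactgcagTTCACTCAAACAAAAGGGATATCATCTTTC
N7 donor: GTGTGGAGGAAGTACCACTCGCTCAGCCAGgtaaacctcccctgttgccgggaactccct
N9 acceptor: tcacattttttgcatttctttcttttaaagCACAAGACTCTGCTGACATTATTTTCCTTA
N9 donor: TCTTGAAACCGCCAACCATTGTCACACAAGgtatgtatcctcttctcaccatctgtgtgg

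Leaving IIICS aside, the variable segments were 16 exons, and the length of each of the 16 was a multiple of 3, so that dropping one leaves the reading frame intact. Among the 47661 skipped exons tested in the whole series, 42.4% had such a length. The segments were also long, with a median of 273 bases against 117 for all exons tested. With the most frequent donor of all those exons (CAGGTAAGT, the last 3 exon and first 6 intron bases) as a yardstick, the 17 segments matched at 6 to 9 of the 9 positions, and the median of all exons was 6. N7, N9 and EDA matched at 7 and EDB at 6. Runs of GGG or more with A or T on both sides, read on the transcribed strand only, lay in the 250 intron bases after the exon for 14 of the 17 segments and for 79.0% of all exons tested.

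Percent spliced in (PSI) is the share of junction reads, per effective length, that include a segment. An event was tested with a mean of at least 20 junction reads per library, by a quasi-binomial F test with limma-moderated dispersion. It counted as called at a Benjamini-Hochberg adjusted p under 0.05 and a change of at least 10 percentage points. Libraries held 31258177 to 40852217 junction reads over skipped exons. The EPI controls served in the EPI knockdown and the EMT comparisons, and the same 2 MES controls in the MES knockdown and the EMT comparisons. The third MES control was in the EMT tables alone. AKAP8 was at 244, 310 and 245 scaled junction reads in EPI controls and at 121, 98.8 and 125 in EPI knockdown libraries. In MES it was at 382, 196 and 248 in controls and 108 and 122 after knockdown. The groups did not overlap in either state. The log2 change was -1.20 (SE 0.25, adjusted p = 0.066, limma) in EPI, which did not pass, and -1.20 (SE 0.28, adjusted p = 0.032) in MES. Of the markers with a value, 5 of 5 epithelial genes fell and 5 of 5 mesenchymal genes rose in EMT, and the leukocyte and endothelial markers had no junction reads to use.

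After AKAP8 knockdown in EPI, 0 of the 92 tested events of the 4 genes were called, where 0.0492% of all events were called. At an unadjusted p under 0.05, 12 of the 92 passed (4.76% of all events), and 0 of these also changed by 10 points (0.998% of all events). In MES, 1 of 189 was called, against 0.054% of all events, and it was the event of COL6A3 N7, with more inclusion after knockdown. In EMT, that is MES against EPI controls, 0 of 127 were called, against 1.6% of all events. There 19 had an unadjusted p under 0.05 (11.6% of all events), and 1 of them, N7, also changed by 10 points (3.79% of all events). In MES 16 had an unadjusted p under 0.05 (3.88% of all events), and 3 of them, all of COL6A3, also changed by 10 points (1.28% of all events). With limma on logit PSI, none of the events of the 4 genes was called in any of the 3 comparisons, and over all events that method called 0 in EPI, 0 in MES and 471 in EMT. By the adjusted p alone, with no minimum change, 5 events passed in EPI, 4 in MES and 8 in EMT (all events 0.0877%, 0.086% and 2.78%). All of these but N7 were in FN1, the most deeply read of the 4 genes. Several of them share the same junction reads and are not separate evidence. With limma on logit PSI, 13 events of the 4 genes passed the adjusted p alone in EMT, 0 in EPI and 0 in MES. The share of all events that passed in this way was not recorded for that method.

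**Figure D1:**
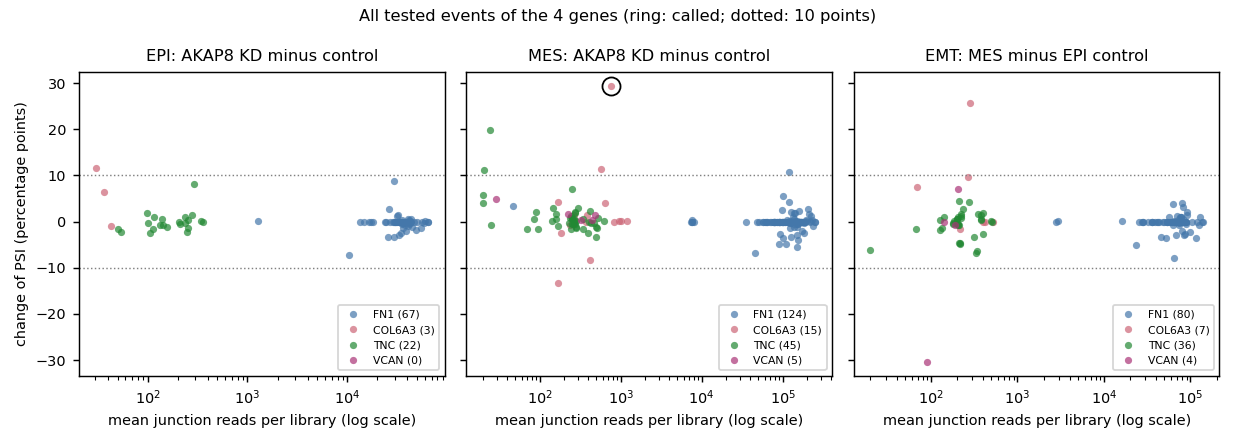
Change of PSI in percentage points (y axis) against mean junction reads per library (x axis, log scale) for every tested event of the 4 genes in the 3 comparisons; colors are genes, with the number of events in brackets, dotted lines mark 10 points and the ring a called event. The ringed point is COL6A3 N7 in MES (29.4 points), and the VCAN point near -30 in EMT is GAG-alpha, which had 0 or 1 read in each EPI control library.

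COL6A3 N7 was included more after AKAP8 knockdown in MES. Its PSI was 51.0% and 46.6% in the 2 MES controls of that comparison and 75.8% and 80.7% in the knockdown libraries, on 259 to 1357 reads. The third MES control, not part of that test, stood at 50.4%. Every knockdown library lay above every control. The change was 29.4 points (adjusted p = 2.46e-09, quasi-binomial test moderated with limma), and 28.9 points with the third control added (adjusted p = 2.62e-09). The call was lost with limma on logit PSI (adjusted p = 0.83). It was also lost when the second MES control was left out (change 27.2 points), a fit with 1 control library. Without effective lengths the change was 22.2 points.

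In EPI controls N7 stood at 31.03%, 23.1% and 16.98%, so every EPI control lay below every MES control. These values rest on 19 to 31 reads per library. The EMT change was 25.6 points and did not pass the adjusted p (0.22). In EPI knockdown libraries N7 was at 63.6%, 20.5% and 21.7%, on 18, 47 and 42 reads, and only the first lay outside the range of the EPI controls. The change in EPI was 11.6 points (adjusted p = 0.82), and -2.57 points without that library. The knockdown effect differed between the states by 17.3 points, which did not pass the test of the difference (adjusted p = 0.67).

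The other modules at the amino end of COL6A3 behaved in 3 ways. N10, measured in transcripts without N9, was at 0% and 1.54% in the 2 MES controls and at 1.74% and 2.81% after knockdown. Nearly all of those transcripts lacked it. N9, measured in transcripts without N10, was included at 43.5%, 35.9% and 46.1% in MES controls and at 38.1% and 49.3% after knockdown. The groups overlapped, and the change was 4.002 points (adjusted p = 0.76). In EPI it ranged from 22.4% to 49.2% over the 6 libraries on 16 to 60 reads, with no call. N8 was read in transcripts without N10, N9 and N7, and its inclusion reads hold the junction that counts as skipping of N7. It was near full inclusion in MES controls (97.7%, 98.7% and 99.05%) and stood at 88.3% and 91.7% in the knockdown libraries. This difference of -8.22 points did not pass (adjusted p = 0.28), and did so with the third control added (adjusted p = 0.034, -8.50 points). It was -4.38 points without effective lengths and -4.20 points as the median over all events of the exon. The 4 COL6A3 exons outside these modules that had enough reads had a mean PSI of at least 99.6%.

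**Figure D2:**
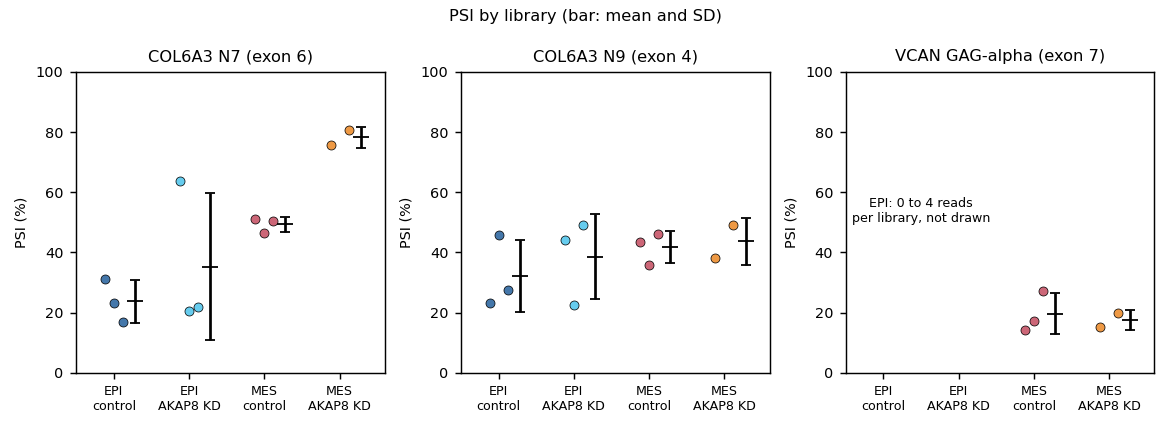
PSI (%, y axis) of COL6A3 N7, COL6A3 N9 and VCAN GAG-alpha in each library (points) of the 4 groups (x axis), with the mean and SD beside them. The 2 MES knockdown libraries lie at 75.8% and 80.7% for N7, above the other libraries, while N9 and GAG-alpha overlap between MES groups.

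EDB inclusion in FN1 was 33.8%, 33.5% and 34.8% in EPI controls and 45.7%, 42.5% and 40.1% in EPI knockdown libraries. The groups did not overlap, on 16045 to 39948 reads per library. The change of 8.77 points passed the adjusted p (1.16e-09) but not the 10-point minimum. The adjusted p was 0.91 with limma on logit PSI, and without the third knockdown library the change reached 10.1 points and was called. In MES, EDB was at 34.1%, 39.1% and 40.2% in controls and at 45.0% and 49.7% after knockdown, again without overlap. Against the first 2 controls the change was 10.7 points with an adjusted p of 0.76, and the median over the events of the exon was 5.37 points. Leaving out any 1 of the 4 libraries, the change was 8.25 to 13.2 points, in fits with 1 library in a group. With the third control it was 9.56 points (adjusted p = 2.64e-11), and with a dispersion trend that was not robust 10.7 points (adjusted p = 3.14e-09). The knockdown effect on EDB differed between the states by 0.79 points (adjusted p = 0.99). In EMT the change was 3.83 points (adjusted p = 0.0012), lost without a robust trend (0.21), on logit PSI (0.88) and when any 1 library other than MES control 1 was left out (0.051 to 0.40). The first MES control, at 34.1%, lay within the range of the EPI controls.

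EDA was included more than EDB in every library. Its PSI was 74.8%, 75.8% and 79.1% in EPI controls and 79.5%, 74.3% and 79.9% in EPI knockdown libraries, which overlapped (1.32 points, adjusted p = 0.90). In MES controls it was 65.5%, 68.0% and 72.7%, each below every EPI library. The EMT change was -7.86 points and did not pass (adjusted p = 0.35), while it passed with a trend that was not robust (2.80e-07) and when any 1 library other than MES control 2 was left out (at most 0.0015). As the median over the events of the exon it was -3.94 points. MES knockdown libraries were at 70.5% and 71.7%, within the range of the 3 MES controls. Against the 2 controls of the test the change was 4.34 points (adjusted p = 5.80e-06), and it shrank to 2.36 points with the third (adjusted p = 0.65). It was 2.18 points as the median over the events, and the pass was lost with a trend that was not robust (0.40) and on logit PSI (0.95). The pass was also lost without MES control 1, MES control 2 or the second knockdown library, fits with 1 library in a group.

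From EPI to MES controls the means of the 2 extra domains moved in opposite directions, from 34.0% ± 0.68 to 37.8% ± 3.23 (SD, n = 3) for EDB and from 76.6% ± 2.27 to 68.7% ± 3.64 (SD, n = 3) for EDA. Neither difference was called. Of the 71 events of the 4 genes that could be tested for a difference of the knockdown effect between the states, 0 passed at an adjusted p under 0.05, where 0.0124% of all events passed.

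In the IIICS region the V0 form, which lacks all 120 variable codons, took a larger share of the reads after knockdown in EPI, by an amount under the 10-point minimum. The event of the longest form against V0 counts the junction into the first acceptor, which forms without the 31-codon segment also use. Its PSI is therefore not the share of the longest form alone. This PSI was at 94.2%, 93.8% and 94.1% in EPI controls and at 90.8%, 91.9% and 91.0% in knockdown libraries. The groups did not overlap, and the change was -2.80 points (adjusted p = 5.95e-11; 0.94 on logit PSI), or -1.51 points without effective lengths. V0 junction reads numbered 623, 1056 and 1292 in EPI controls and 1249, 1733 and 1682 in knockdown libraries. In MES the PSI of this event was at 90.0%, 91.2% and 92.2% in controls and at 85.4% and 89.0% after knockdown. These groups did not overlap either, but the change of -3.39 points did not pass (adjusted p = 0.87), while it did with a trend that was not robust (2.57e-13). The change was -1.60 points without the first and -5.19 points without the second knockdown library, fits with 1 knockdown library each. In EMT it was -2.89 points (adjusted p = 6.70e-04; 0.59 on logit PSI), or -1.56 points without effective lengths. The event of the second acceptor against V0 changed more. It was at 81.8%, 80.9% and 82.6% in EPI controls and at 73.4%, 75.3% and 75.1% after knockdown, a change of -7.18 points (adjusted p = 5.95e-11). Its changes were -6.72 points in MES (adjusted p = 0.87) and -5.08 points in EMT (adjusted p = 0.071). All 4 events of the V region that set a longer form against V0 used the same V0 reads.

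The 25-codon segment with CS1 was present in most transcripts that used either of the first 2 acceptors. It was at 93.5%, 94.4% and 94.6% in EPI controls and at 91.3%, 91.5% and 91.3% in MES controls. Every MES control lay below every EPI control, with a change of -2.80 points (adjusted p = 2.70e-11; 0.59 on logit PSI), or -1.71 points without effective lengths. After knockdown the difference was -1.02 points in EPI (adjusted p = 0.065, but 0.045 leaving out EPI control 1 and 0.023 leaving out EPI knockdown library 2) and -0.36 points in MES (adjusted p = 0.69). The 31-codon segment was retained at 21.98% to 25.7% over the 11 libraries, in transcripts that used either of the first 2 acceptors. V0 transcripts, which lack it, were not counted. With all libraries, none of its changes passed. In EMT it passed without EPI control 3 (1.66 points, adjusted p = 0.049). In MES the change was -1.13 points without the first knockdown library. FN1 exons outside the 3 variable regions were nearly constitutive: 34 of 34 had a mean PSI of at least 99%.

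**Figure D3:**
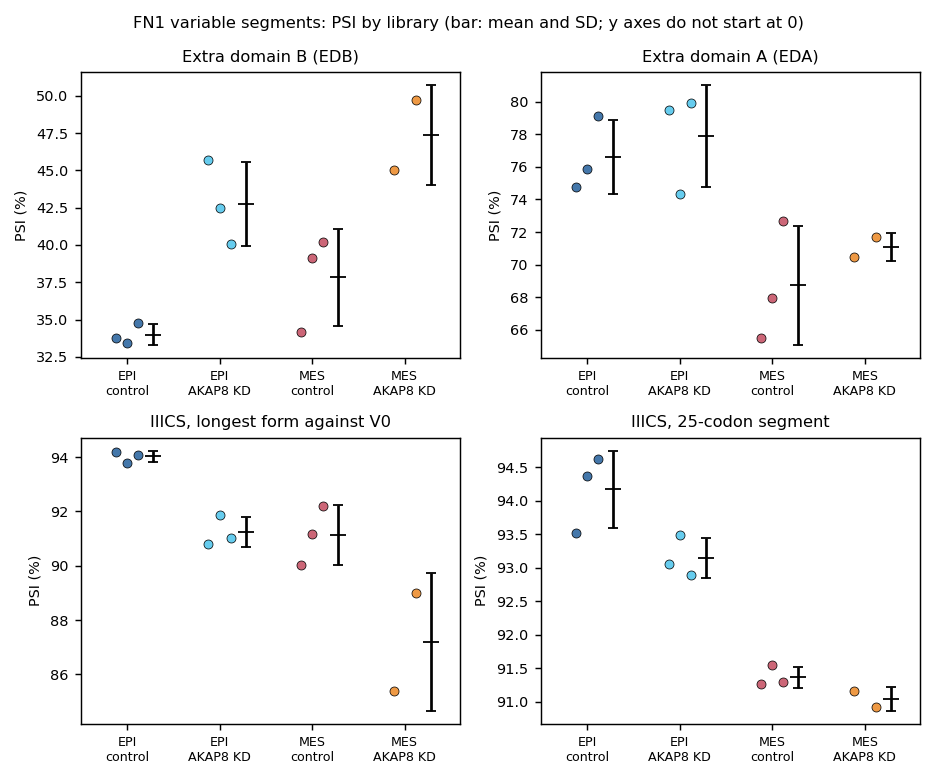
PSI (%, y axes that do not start at 0) of EDB, EDA, the longest IIICS form against V0, and the 25-codon segment in each library (points) of the 4 groups (x axis), with the mean and SD. EDB was higher in knockdown than in control libraries in both states (42.8% against 34.0% in EPI), and the PSI of the IIICS event against V0 was lower. Reads of that event also come from forms without the 31-codon segment.

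Each TNC event has at least 1 other alternative repeat as a flanking exon. Transcripts that skip the whole set from A1 to D were therefore not counted. Among the transcripts counted, most alternative repeats were kept. A1, A2, A4 and B had a PSI of 96.3% or more in every library with a value, and D of 91.9% or more. The A2 event shown sets A2 against a junction from A1 past D. The A4 event sets A4 against one from A2 to B, and the B event sets B against one from A4 to D. Loss of A2 or A4 alone, or of B with C kept, was not counted in these values. The unlettered repeat was at 0% to 4.88%. Repeat C was included in part, at 36.4%, 30.1% and 24.8% in EPI controls, 25.5%, 25.9% and 39.5% in EPI knockdown libraries, 28.6%, 24.8% and 27.8% in MES controls and 23.3% and 24.9% in MES knockdown libraries. The EPI groups overlapped, and the changes were -0.11 points in EPI (adjusted p = 0.97), -2.57 in MES (0.88) and -3.4 in EMT (0.67). Repeat A3 was at 97.6%, 97.2% and 94.98% in EPI controls and at 84.8%, 93.8% and 92.4% in MES controls. Those groups did not overlap, but the change of -6.27 points did not pass (adjusted p = 0.42). It was -0.66 points as the median over all events of the exon, -3.396 points without effective lengths and -3.51 points without MES control 1. Its 2 MES knockdown libraries, at 94.5% and 88.9%, lay on both sides of the second MES control. None of the 22, 45 and 36 TNC events tested in EPI, MES and EMT was called.

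**Figure D4:**
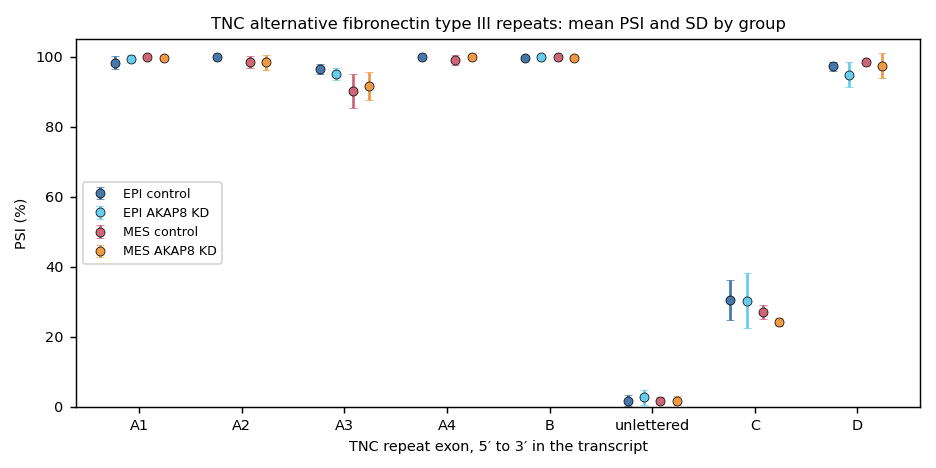
Mean PSI (%, y axis) with the SD of each alternative TNC repeat exon in transcript order (x axis) for the 4 groups. The unlettered repeat and C are mostly skipped and the other repeats mostly included in all 4 groups. Transcripts that skip the whole set, or that lack A2 or A4 alone, are not counted in the events of those repeats. A2 and A4 have no value in EPI knockdown libraries.

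VCAN could be read in MES alone. GAG-alpha, measured in transcripts with GAG-beta, was included at 14.3%, 17.3% and 27.3% in MES controls and at 15.2% and 19.9% after knockdown, on 140 to 304 reads. The groups overlapped (1.75 points against the 2 controls of the test, adjusted p = 0.81), and the sign turned with the third control (-2.08 points). GAG-beta was at 98.6% to 100% in all 5 MES libraries. Its skipping form lacks both segments, so transcripts with GAG-alpha but without GAG-beta were not counted. In the 6 EPI libraries the GAG-alpha event had 0 to 4 reads each, so no PSI is given.

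Summed junction reads of skipped exon events, divided by size factors, gave a level per gene that can be compared between libraries but not between genes. In EMT all 4 genes were called at gene level (adjusted p under 0.05 and a log2 change above 1), where 12.5% of 9014 genes were called. FN1 was at 661258, 1106398 and 1534813 scaled reads in EPI controls and 2773062, 5158246 and 3759849 in MES controls, a log2 change of 1.86 (SE 0.35, adjusted p = 0.0018). COL6A3 was at 62.6, 103 and 135 in EPI controls and 901, 2685 and 2367 in MES controls, a log2 change of 4.21 (SE 0.50, adjusted p = 5.38e-05). For both genes every MES control lay above every EPI control. VCAN had 2 reads over the 3 EPI controls and 543 over the 3 MES controls, a ratio of 280 with an exact 95% counting interval of 77.0 to 2315 that covers counting error only. Its log2 change with 1 added to each value, the measure used for the other genes, was 6.84 (limma adjusted p = 3.45e-07). TNC was at 1353, 2236 and 1936 in EPI and 2047, 5709 and 4042 in MES controls, which overlapped. Its log2 change of 1.004 (SE 0.32, adjusted p = 0.038) was the weakest of the 4 and was lost when libraries were scaled to total junction reads (0.89, adjusted p = 0.057) and when EPI control 1 or 3 or MES control 2 or 3 was left out (adjusted p 0.067 to 0.18). In bulk RNA, fewer cells that express a gene and less RNA per cell cannot be told apart.

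**Figure D5:**
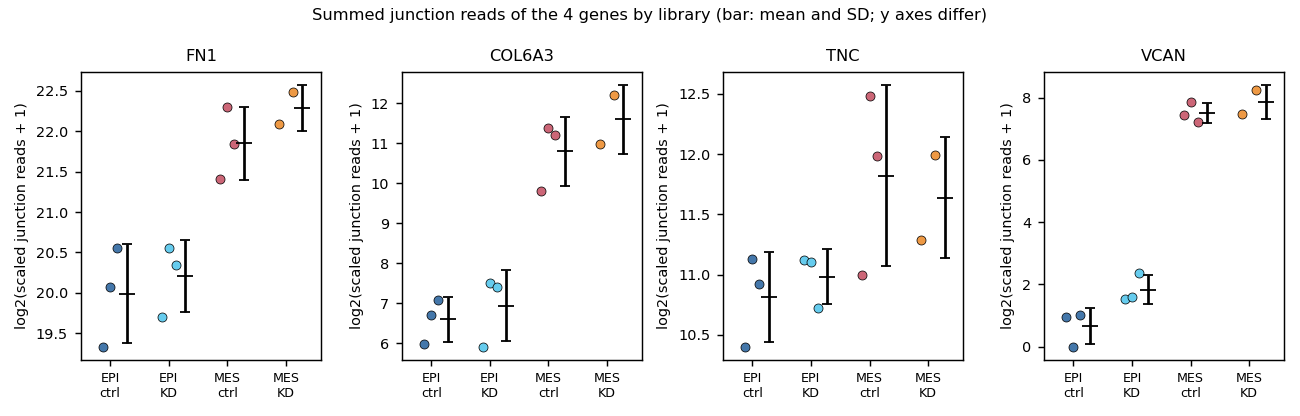
Log2 of scaled junction reads plus 1 (y axes differ) for FN1, COL6A3, TNC and VCAN in each library (points) of the 4 groups (x axis; ctrl, control; KD, AKAP8 knockdown), with the mean and SD. MES libraries lie above EPI libraries for FN1, COL6A3 and VCAN, while the first MES control of TNC, at 2047 scaled reads, lies among the EPI libraries.

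Knockdown called none of the 4 genes at gene level in EPI (0.189% of all genes called) or in MES (2.27%). The log2 changes in MES were 0.79 for COL6A3 (SE 0.56, adjusted p = 0.43), 0.44 for FN1 (SE 0.39, adjusted p = 0.53), 0.36 for VCAN and -0.18 for TNC. COL6A3 was at 2033 and 4724 scaled reads in the MES knockdown libraries, so its N7 change in MES came with a level that was not called as changed. In EPI the values were 0.35 for COL6A3, 0.22 for FN1 and 0.17 for TNC, and VCAN was at 0 to 4.16 scaled reads. In knockdown cells the EMT change was 2.09 for FN1, 4.66 for COL6A3 and 6.04 for VCAN, all called (12.3% of all genes), and 0.65 for TNC (adjusted p = 0.22). None of the 4 passed the test of a difference of the knockdown effect between states (0.0111% of all genes called).

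The proteins that bind, cut or crosslink this matrix were read from the same values. Of 11 receptor genes, 8 had a value, and in EMT ITGA4, which pairs with the CS1 site, rose (log2 change 2.12, adjusted p = 2.27e-04), while CD44 (-1.43) and ITGB6 (-2.27) fell. All 8 of the 16 matrix partners with a value rose in EMT, among them COL6A1, the partner chain of COL6A3 (8.05), POSTN (6.80), COL1A1 (7.02), LOX (3.405) and THBS1 (1.07). Of 8 enzymes, 4 had a value, and MMP2 rose (4.79) and PLAU fell (-1.56). Of 13 splicing factors known to act on such exons, 10 had a value. ESRP1 (-4.05) and ESRP2 (-3.45) fell and QKI rose (1.06). The medians of these 4 lists in EMT were 0.30, 5.10, -0.18 and 0.27, and that of all genes 0.01. Of all 9014 genes, 485 were called up and 645 down in EMT (12.5% called). Knockdown in EPI called 1 gene of the 4 lists (0.189% of all genes called), LOX, which crosslinks collagen. LOX was at 268, 376 and 470 in EPI controls and at 1583, 1950 and 1387 after knockdown (log2 change 2.16, SE 0.26, adjusted p = 0.0037), without overlap. In MES its log2 change was 1.08 (adjusted p = 0.053), and the difference between the states did not pass (adjusted p = 0.65). Knockdown in MES called none of the lists (2.27% of all genes called), and none of the 10 splicing factors was called after knockdown in either state.

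Over the 11 libraries, the genes whose level ran most like FN1 were MFAP2 (Pearson r = 0.99), COL6A3 (0.98) and MMP2 (0.98). For COL6A3 they were FN1, MFAP2 and MSC-AS1 (each 0.98), for VCAN POSTN, CYBRD1 and CMKLR1 (each 0.99), and for TNC MED13L (0.92), KANK4 (0.91) and AKAP17A (0.89). Among 8896 skipped exons with a PSI range of at least 10 points, those most like COL6A3 N7 lay in CD46 (r = 0.96), EPB41L1 (-0.95) and GALT (-0.95). For FN1 EDA they lay in EXOC7 (-0.93), RPAIN (0.93) and ABLIM3 (-0.92), and for TNC A3 in SLC25A23 (0.93), CTNND1 (-0.92) and PPIP5K2 (-0.91). These are descriptions over libraries that share the split into EPI and MES and were picked as the highest of all genes or exons compared.

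AKAP8 binding was mapped by seCLIP in EPI and MES cells, with the peaks merged over 2 replicates. No peak lay in any of the 4 genes in either state, among 21665 peaks in EPI and 26228 in MES at a log2 enrichment of at least 2 and a -log10 p of at least 3. The full lists of 24637 and 30390 peaks held none there either. At the same cutoffs, 18.2% of the 11968 genes of the event tables had a peak on their strand in EPI and 11.3% in MES. The depth of the seCLIP libraries is not known here, so binding below the reach of these lists was not measured.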

How the data were processed

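Poly(A) stranded paired-end RNA-seq (11 libraries) and seCLIP (8 libraries, input and AKAP8 immunoprecipitate) were analysed from the deposited tables. The authors aligned reads to GRCh37 with STAR 2.6.1a and counted inclusion and skipping junction reads with rMATS for 5 event types and 3 comparisons. PSI was recomputed from these reads and the deposited effective lengths. The 30 columns of per-sample PSI and the authors' p-values and fold changes, in these tables and in a gene table made with featureCounts 1.5.0 and DESeq2, were not used. The peak lists hold the -log10 p and the log2 enrichment over input that the authors deposited.

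Events with a mean of at least 20 reads per library were fitted over whole tables with a quasi-binomial likelihood-ratio F test. Its dispersion was moderated with squeezeVar of limma 3.58.1 (R 4.3.3; robust, trend on the reads of the rarer form, never below 1; under 10 such reads the trend alone). P-values were adjusted within event type and comparison. The difference of the knockdown effect between states was tested as an interaction over 11 libraries. Gene levels used limma with trend on log2(value + 1) for genes with at least 10 scaled reads in 2 libraries. A read counts once for every event it supports. The dispersion came from Pearson residuals, preferred over the deviance with totals of calls over all events in view. Fits were tested on simulated data. A first simulation with 1 low spread and a smaller change recovered fewer of the changed events, and its settings were then moved to the fitted spread and a larger change, so recovery depends on both and an event not called in MES may still have changed.

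An exon in several events is represented by the event with the most reads. The text names the known variable segments and any other event called. Like genes and exons are the 3 with the highest r (absolute r for exons). Positions of exons come from Gencode 44 lifted to GRCh37, newer than the annotation of the authors. The genes, lists and tests were chosen with earlier results of these data known. The cultures are biological replicates per the methods of the study. An exact two-sided permutation test cannot go below 0.1 with 3 against 3 or 0.333 with 2 against 2, so none is given. Alternatives covered read minimums, the dispersion trend, limma on logit PSI, dispersion from the deviance (added after the data were seen), adjustment over all types, effective lengths, the third MES control, scaling, the pseudocount and the leaving out of each library.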

Additional observations from a re-analysis of the deposited data

How the results depend on the processing

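No paired analysis was possible because the read lists of the tables carry no replicate numbers. The number of events of the 4 genes called in EPI was 0, and 2 with a minimum change of 5 points (EDB and a V0 event); it was 0 to 1 when 1 library was left out. In MES it was 1, 2 with a trend that was not robust (EDB added) and 0 with limma on logit PSI. Leaving out 1 library of the MES test leaves 1 in a group, with no spread between cultures there. No count is therefore given for those fits. Without the second MES control N7 was not called. In EMT it was 0 under every alternative run (0 to 0 leaving out 1 library). Gene-level calls numbered 4, and 3 to 4 leaving out 1 library. The interaction count stayed at 0 with 2 MES controls. Peaks stayed at 0 at a log2 of at least 3 and within 1000 bases of a variable exon. The cause of these shifts was not tested.

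Signs turned in uncalled values alone. With the median over all events, N9 in MES was -0.74 points, and with the third control GAG-alpha in MES was -2.08 points. Leaving out 1 library, the change of PSI ranged from -1.57 to 9.57 points for N9 in MES, -2.57 to 19.0 for N7 in EPI, -2.12 to 6.88 for A3 in MES, -4.72 to 2.87 for C in EPI, -0.63 to 4.12 for GAG-alpha in MES and -1.13 to 0.18 for the 31-codon segment in MES. The log2 change ranged from -0.11 to 0.50 for FN1 in EPI, -0.0394 to 0.32 for TNC in EPI, -0.59 to 0.17 for TNC in MES and -0.0192 to 0.75 for VCAN in MES. With dispersion from the deviance, an alternative chosen after seeing the data, the counts of called events were 0 in EPI, 1 in MES and 0 in EMT. Of 510 recomputed values of single exons and genes, 439 counted as unchanged. The set was restricted, after the data were seen, to those whose change is printed. An unchanged value kept its direction and its side of the adjusted p threshold. Changes without effective lengths and medians over events have no adjusted p. For these, unchanged meant the same direction and a distance from the main change under the pooled SD of the groups. EPI values of COL6A3 and VCAN are limited by depth, and the adjusted p of FN1 events depends on the dispersion model.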
